A study of Drosophila melanogaster with 4 samples.

Results

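The cuticle protein genes of Drosophila melanogaster were examined in ovaries of adult females that carried a follicle cell tumor and in control ovaries. The genes were chosen by symbol alone, as every listed gene whose symbol starts with Cpr and a digit, Twdl, Lcp, Ccp84, Acp65A or Edg. The rule gave 124 of 17773 listed genes, 121 of them protein-coding and 3 annotated as pseudogenes. The tumor genotype was tj-GAL4, tubulinGal80ts; UAS-aPKCΔN UAS-RasV12, with 2 libraries. It expressed a shortened atypical protein kinase C and the oncogenic Ras form RasV12. The control genotype was tj-GAL4, tubulinGal80ts without those transgenes, also with 2 libraries. Both genotypes shared the driver, which is active in somatic ovary cells including the follicle cells, and the temperature-sensitive Gal80 repressor, and both were kept for 20 days at 29 °C. Control tissue was limited to follicles before yolk uptake while tumors were used as dissected, and each was broken up with a protease from Bacillus and passed through a filter to enrich the follicle epithelium. The series' design text calls the libraries biological replicates. The labels give no further age and do not say how many animals went into a library, so p-values measure the spread between these samples.

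Insect cuticle is an apical extracellular matrix of chitin fibers, proteins and lipids that epidermis, trachea, foregut and hindgut secrete. Most genes named Cpr, Lcp, Ccp84, Acp65A and some named Edg encode proteins with the Rebers-Riddiford domain, a chitin-binding stretch that ties protein to the fibers. Tweedle proteins form a separate insect family of cuticle proteins that shape the body wall. Many of these genes lie side by side in clusters, and most are switched on in brief pulses around a molt. The follicular epithelium makes eggshell in place of cuticle.

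The libraries held 47512735 and 42739528 estimated counts in tumor and 41248098 and 50971937 in control. An estimated count is the number of reads that the quantifier assigned to a gene, which need not be whole. The driven gene Ras85D had 102550 and 109225 estimated counts in tumor against 676 and 215 in control, and aPKC had 54944 and 73836 against 1910 and 2482, so both checks went with the labels. By locus sum their log2 changes were 3.10 ± 0.11 and 3.33 ± 0.19, tumor over control. The follicle cell gene tj had 13558 and 11159 counts in tumor and 15641 and 21837 in control. Of 8 follicle cell markers 3 were above both control libraries in tumor and 3 below. Of all genes with 10 or more counts in both libraries of a group, 45.4% were above in this way and 34.4% below. The markers summed to 2011 and 2280 CPM in tumor and 2302 and 2617 CPM in control. Fas3 had 25037 and 24733 counts in tumor against 7504 and 10472 in control, and the yolk protein gene Yp1 had 173 and 446 against 33487 and 41661. The eggshell gene Vm26Aa was at 0 throughout, while yellow-g and yellow-g2 had 9934 and 5241 counts in control 1 and at most 80.1 in any other library. For 99.3% of the annotated genes the quantified target was the whole gene span plus 2 kb on each side. Of the cuticle protein genes, 118 had an exon inside the target of some other gene. For this reason a locus sum is given beside the compared genes, which adds up the counts of all targets in which the gene has an exon.

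Most cuticle protein genes were listed at 0 or at few counts in both genotypes. Of the 124 genes, 79 (63.7%) had an estimated count above 0 in some library, against 72.9% of all listed genes, and 45 were listed at 0 in all 4 libraries. A listed 0 does not show silence where targets overlap: 39 of the 45 had no exon base outside other targets, and for 20 of the 45 the locus sum reached 10 counts in some library, while for 8 it was 0 in all 4. The mitochondrial tRNA synthetase gene TyrRS-m was also listed at 0 throughout. The value was under 1 count for 4 of the 79. A count of 3 or more in some library was reached by 52 of the 124 cuticle protein genes, against 64.8% of all listed genes. For 49 of the 79 the highest count in any library was under 10. Tumor libraries had 45 and 53 of the genes above 0, and control libraries had 32 and 34. In tumor alone 34 genes (43.0% of the 79) were above 0, in control alone 12 (15.2%), and in both genotypes 33 (41.8%). Of all 12955 listed genes above 0, these shares were 11.8%, 8.3% and 79.9%. Among the 49 with a highest count under 10, 49% were seen in tumor alone and 24.5% in control alone. Among all 2750 listed genes in that range the shares were 38.5% and 25.9%. In both sets more genes were seen in tumor alone than in control alone.

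**Figure D1:**
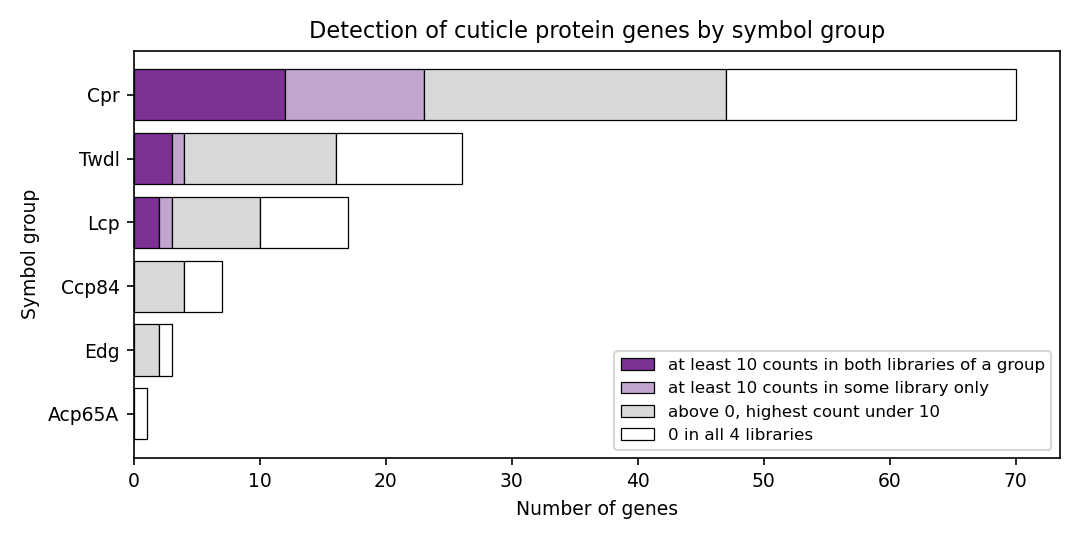
Number of genes (x axis) in each symbol group (y axis), split by the highest level reached. Of the 70 Cpr genes 12 had at least 10 estimated counts in both libraries of a group, of the 26 Twdl genes 3, of the 17 Lcp genes 2, and of the Ccp84, Edg and Acp65A genes none.

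Several large clusters were listed with very low counts. Clusters were defined as runs of members no more than 20 kb apart, and 95 of the 124 genes lay in 17 clusters of at least 2. In the cluster of 19 genes on chromosome 3L (6130386 to 6161589 in BDGP6.54, the build of all coordinates here), which holds the Lcp65A genes and Acp65Aa, 7 genes were above 0 and the highest count was 7.15. In the cluster of 12 Tweedle genes on chromosome 3R (26619118 to 26641054), 7 were above 0 and the highest count was 2. The cluster with the 7 Ccp84 genes and Edg84A on chromosome 3R (6684445 to 6704903) reached a count of 4. Edg78E, an ecdysone-dependent pupal cuticle gene, had 0 and 0 counts in tumor and 7.49 and 0 in control, and Edg91 was listed at 0 throughout. No comparison of genotypes was made for these clusters.

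At least 10 estimated counts in both libraries of a group were found for 17 cuticle protein genes (13.7%), against 52.1% of all listed genes. Of the 17, 8 met this limit through the tumor libraries alone, 5 through the control libraries alone and 4 through both genotypes. Just inside the limit were Cpr78E, Cpr12A and Cpr62Bc, with 11, 13 and 15 counts in the lower library of their better group. Just outside were TwdlT, Cpr76Bc and Lcp4, with 9.73, 8.79 and 7.71. A gene that met the limit through 1 genotype had at least 1 library of the other under 10 counts, so its entry is not independent of the difference.

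In edgeR's quasi-likelihood test over 9402 genes with Benjamini-Hochberg adjustment, 7 of the 17 were higher in tumor at an adjusted p below 0.05, where 23.4% of all tested genes were. These were Cpr64Ab, Cpr47Ee, TwdlE, Cpr49Ac, Cpr49Af, Cpr62Bc and Cpr12A. All 7 were among the 8 that entered through tumor alone. Among all tested genes that entered in that way, 59.2% were called higher. None of the 17 was called lower with edgeR, where 21.2% of all tested genes were, and 1 (Lcp9) was lower at an unadjusted p below 0.05. DESeq2 and limma-voom called the same number of the 17 higher, 7, and each called 1 lower, Lcp9. Among all tested genes DESeq2 called 27.1% higher and 25.9% lower, limma-voom called 24.5% and 22.6%, and edgeR on locus sums called 28.3% and 26.9%. Of the 5 that entered through control alone none was called, against 59.5% of all tested genes that entered in that way, and of the 4 present in both genotypes none was called, against 22.0% higher and 20.2% lower among all such genes. On a CPM scale, which gives counts relative to the library total, both tumor libraries lay above both control libraries for 10 of the 17 and below them for 6. Over all listed genes with this level, these shares were 45.4% and 34.4%. When each of the 4 libraries was left out in turn, 3 genes were called higher, and these were Cpr64Ab, Cpr47Ee and TwdlE each time.

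**Figure D2:**
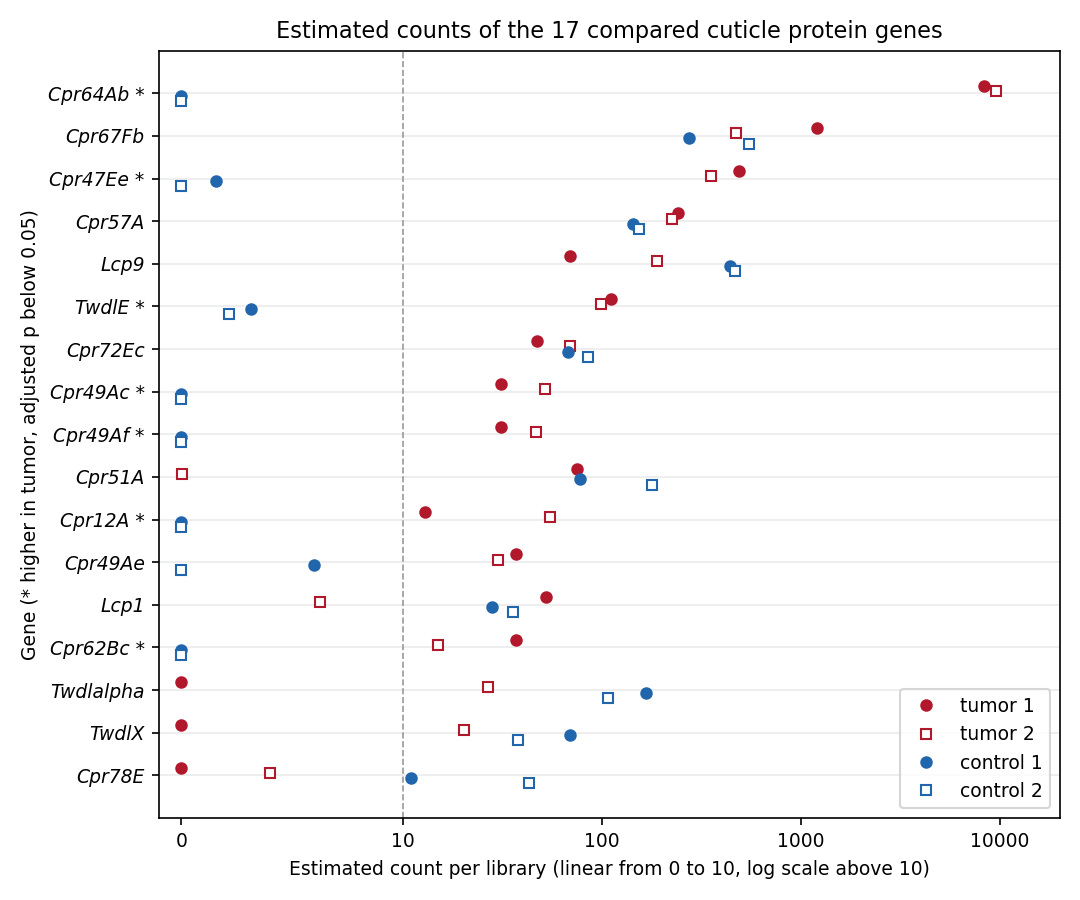
Estimated counts (x axis, linear from 0 to 10 and log above) of the 17 compared genes (y axis, ordered by mean CPM in tumor), with red symbols for tumor, blue for control and filled or open symbols for libraries 1 and 2. Cpr64Ab stands at 8300.3 and 9531 in tumor against 0 in both control libraries, while the other genes stay at or under 1201.

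The sum over all 124 genes was dominated in tumor by 1 gene. It came to 230.3 and 270.3 CPM in tumor and to 33 and 34.2 CPM in control. Cpr64Ab supplied 75.9% and 82.5% of the summed count in the tumor libraries and nothing in control. Without it the sums were 55.6 and 47.3 CPM in tumor and 33 and 34.2 CPM in control. Since these are bulk libraries, more cells that express a gene and more RNA per cell cannot be told apart.

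Cpr64Ab (FBgn0035511, chromosome 3L, 4210880 to 4211540, minus strand) encodes a cuticular protein of the Rebers-Riddiford family. It had 8300.3 and 9531 estimated counts in tumor and 0 and 0 in control. The tumor libraries were close together and far above control. Against a floor of 3 counts in each control library, which covers counting error only, it was at least 3022-fold higher in tumor (edgeR adjusted p = 0.0012). Its adjusted p was 0.0047 to 0.012 when each library was left out in turn. At 265 and 350 TPM, a level per length of the target, it ranked 489th and 392nd among all genes of the tumor libraries. The gene has 2 exonic stretches in 661 bases and lies within the span of CG43367, which runs on the opposite strand and has no exon in the target of Cpr64Ab. CG43367 had 4910 and 4945 counts in tumor against 3570.1 and 4541 in control, a log2 change (log2 of the fitted fold, tumor over control, with an error derived from the test) of 0.22 ± 0.08 (edgeR adjusted p = 0.092). The target of CG43367 covers Cpr64Ab, and those of Cpr64Aa and Cpr64Ac also hold exons of Cpr64Ab, as its target holds exons of theirs. No exon base of Cpr64Ab lies outside other targets, so the listed counts do not settle which of these genes gave the reads. The locus sum, which includes CG43367, was 13211 and 14632 in tumor against 3570.1 and 4541 in control and rose by a log2 change of 1.73 ± 0.10 (edgeR adjusted p = 3.7e-04). Cpr64Aa and Cpr64Ad were listed at 0 in all 4 libraries, and Cpr64Ac had 0 and 156 counts in tumor and 0 and 0 in control. The locus sums of Cpr64Aa and Cpr64Ac, which contain the counts of Cpr64Ab, rose by 1.72 ± 0.10 and 1.73 ± 0.10 on the log2 scale (edgeR adjusted p = 3.5e-04 and 3.7e-04).

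Cpr47Ee and TwdlE were the other genes whose calls held without any single library. Cpr47Ee (FBgn0033602, chromosome 2R, 11265126 to 11266856, plus strand), another gene of the Rebers-Riddiford family, had 487 and 353 estimated counts in tumor and 1.56 and 0 in control. Summed over libraries and set against the library totals, tumor exceeded control 429-fold, with an exact 95% counting interval of 118 to 3550-fold (edgeR adjusted p = 0.0074). It was the only member of a cluster of 7 to reach 10 counts in both libraries of a group. The adjacent Cpr47Ef had 35.2 and 0 counts in tumor against 5.82 and 13 in control, and the remaining 5 genes reached at most 5 counts. No exon base of Cpr47Ee lies outside the target of Cpr47Ef, so the listed counts do not settle which of these 2 genes gave the reads. The 429-fold value and its interval hold for the counts listed under Cpr47Ee alone. The locus sum of Cpr47Ee, which adds Cpr47Ef, was 522 and 353 in tumor against 7.38 and 13 in control. It rose by a log2 change of 5.38 ± 0.43 (edgeR adjusted p = 7.0e-04). TwdlE (FBgn0031957, chromosome 2L, 7857957 to 7860839, minus strand) is the one Tweedle gene called. It had 112 and 99.1 counts in tumor and 3.17 and 2.16 in control, and its groups were well apart. Its log2 change was 5.24 ± 0.64 (edgeR adjusted p = 0.0066), and 0.031 to 0.047 was the range of its adjusted p with each library left out. The gene lectin-28C overlaps it on the opposite strand and was listed at 0 in all 4 libraries, so the locus sum held the same counts. No exon base of TwdlE lies outside the target of lectin-28C, so the listed counts do not settle which of the pair gave the reads. The locus sum of lectin-28C, which contains the counts of TwdlE, was 305 and 456 in tumor against 54 and 82 in control (log2 change 2.45 ± 0.38, edgeR adjusted p = 0.0046).

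A further group of tumor calls rested on low counts. In the Cpr49A cluster on chromosome 2R, Cpr49Ac had 31.3 and 51.7 estimated counts in tumor and 0 and 0 in control, which is at least 14.2-fold higher (edgeR adjusted p = 0.018). Cpr49Af had 31.1 and 46.9 in tumor and 0 and 0 in control, at least 13.3-fold higher (edgeR adjusted p = 0.017). Cpr49Ae, next to Cpr49Af, had 36.9 and 30.1 in tumor and 6 and 0 in control and missed the threshold (edgeR adjusted p = 0.14). Cpr49Ae and Cpr49Af overlap each other's targets, and their shared locus sum of 68 and 77 in tumor against 6 and 0 in control rose by a log2 change of 4.43 ± 1.11 (edgeR adjusted p = 0.021). The locus sum of Cpr49Ac, which adds Cpr49Ad, rose by 2.93 ± 0.69 (edgeR adjusted p = 0.017). Of the other cluster members, Cpr49Aa and Cpr49Ag were listed at 0 in every library, and Cpr49Ad had 0 and 6.55 counts in tumor against 6 and 5 in control. Cpr49Ab had 0 and 43.5 in tumor against 0 and 0, and Cpr49Ah had 2 and 1 against 0 and 0. The locus sums of Cpr49Aa, Cpr49Ag and Cpr49Ad were larger in tumor than their listed counts, since targets overlap along the cluster. For Cpr49Ab the locus sum equaled the listed counts. That of Cpr49Ag was 31.1 and 46.9 in tumor against 0 and 2 in control (log2 change 5.09 ± 1.02, edgeR adjusted p = 0.010), and that of Cpr49Aa was 155 and 76 in tumor against 0 and 1 in control. The listed counts therefore do not settle which genes of the cluster gave the reads.

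Cpr62Bc and Cpr12A were the 2 compared genes with every exon base outside other targets, so their exons lay in no neighboring target. Cpr62Bc (chromosome 3L, 1840281 to 1842084) had 37 and 15 counts in tumor and 0 and 0 in control, at least 8.59-fold higher (edgeR adjusted p = 0.029). Cpr12A (chromosome X, 13543643 to 13544907) had 13 and 55 in tumor and 0 and 0 in control, at least 11.9-fold higher (edgeR adjusted p = 0.041). Both encode proteins of the Rebers-Riddiford family. For each of them the tumor libraries differed by more than 2-fold, while both stayed above control. The calls of Cpr49Ac, Cpr49Af and Cpr62Bc ended on removal of any one library, and the highest adjusted p reached 0.096, 0.096 and 0.15. That of Cpr12A ended without tumor 1, control 1 or control 2 (adjusted p up to 0.11), and without tumor 2 it could not be fitted.

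**Figure D3:**
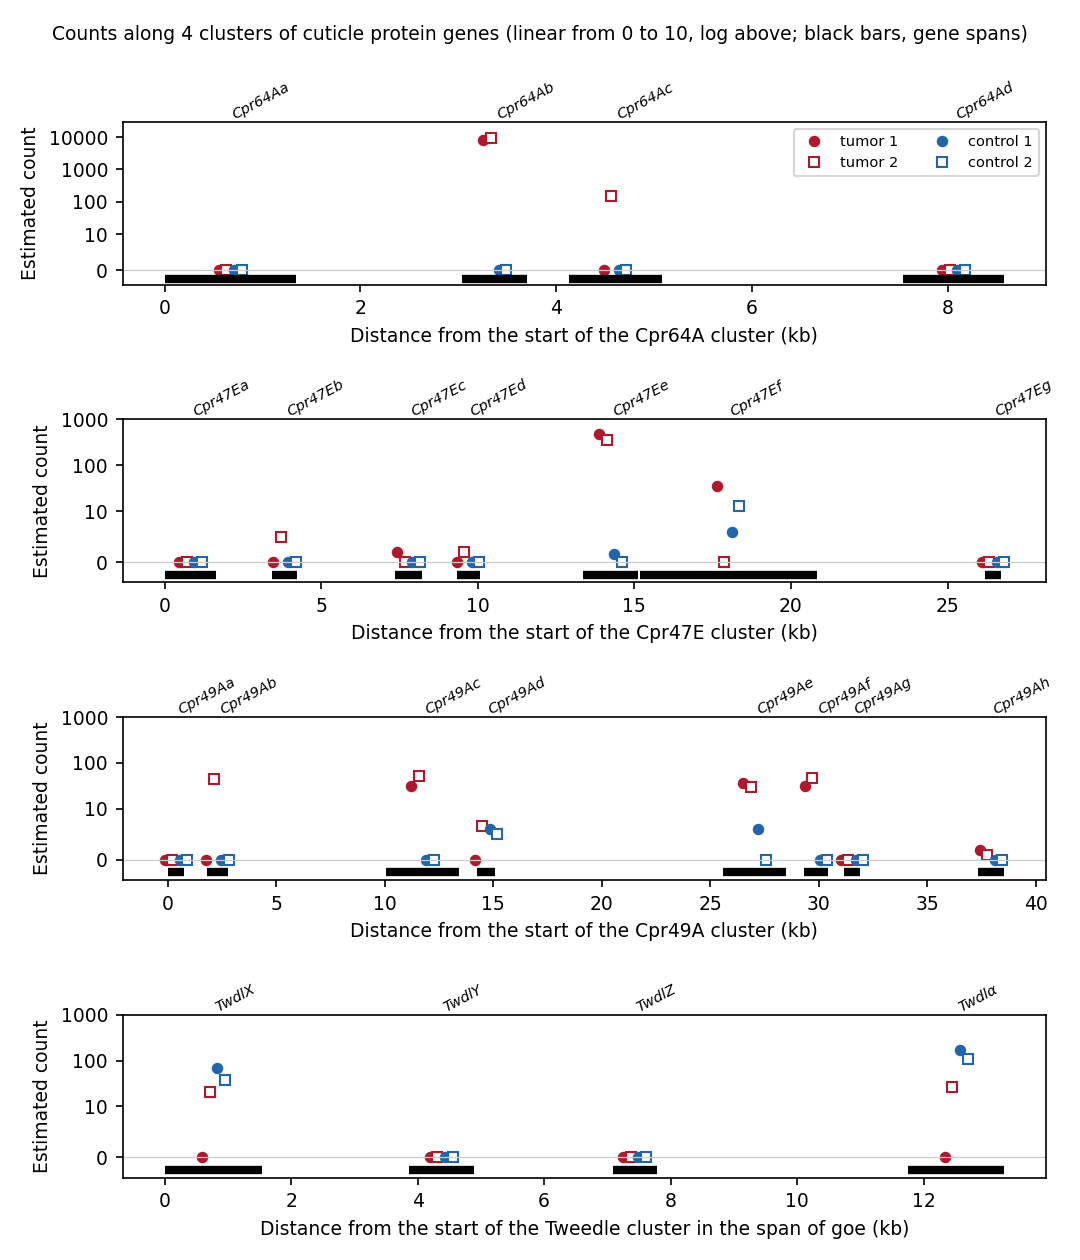
Estimated counts per library (y axis, linear from 0 to 10 and log above) along 4 clusters of cuticle protein genes, against distance from the start of the cluster in kb (x axis), with black bars for gene spans, red symbols for tumor and blue for control. In the Cpr64A and Cpr47E clusters 1 gene is listed with nearly all counts, in the Cpr49A cluster 3 genes hold 30.1 to 51.7 counts in each tumor library, and in the Tweedle cluster inside goe the end genes have more counts in control.

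The 4 genes with at least 10 counts in every library did not pass the threshold. Cpr67Fb (FBgn0036110, chromosome 3L, 10894173 to 10894693) had 1201 and 474 estimated counts in tumor and 273 and 552 in control, a log2 change of 0.97 ± 0.53 (edgeR adjusted p = 0.21). The tumor libraries of this gene differed more from each other than tumor 2 did from control 2. Its exons lie within the targets of Aps and of an antisense RNA. Aps had 13262 and 13888 counts in tumor against 14456 and 18404 in control, and the locus sum had a log2 change of -0.28 ± 0.07 (edgeR adjusted p = 0.026). Lcp9, a larval cuticle protein gene (FBgn0025578, chromosome 2R, 24779979 to 24780428), stood at 15.7 and 13.5 TPM in control, and it had the highest mean control level of the members on that scale. It had 69.7 and 190 counts in tumor and 443 and 469 in control, and its groups did not overlap. Its log2 change was -1.86 ± 0.61 (edgeR adjusted p = 0.068), with an adjusted p of 0.010 with DESeq2, 0.033 with limma-voom and 0.021 to 0.21 when each library was left out. Its exons lie wholly within 4 other targets, among them egg and CG3594, and the locus sum had a log2 change of 0.19 ± 0.09 (edgeR adjusted p = 0.14).

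Cpr57A (FBgn0034517, chromosome 2R, 20548368 to 20550117) had 243 and 225 counts in tumor and 144 and 153 in control, a log2 change of 0.58 ± 0.34 (edgeR adjusted p = 0.23). The odorant-binding protein gene Obp57d has the same annotated span and was listed with the same 4 counts. The files do not assign these reads to one of the pair. The locus sum of Cpr57A had a log2 change of 0.20 ± 0.22 (edgeR adjusted p = 0.49). Cpr72Ec (chromosome 3L, 16365894 to 16367340), whose neighbors in the target had 0 to 10.8 counts, had 47.5 and 69.5 in tumor and 68.1 and 85.2 in control, a log2 change of -0.44 ± 0.50 (edgeR adjusted p = 0.51) with a locus sum of -0.33 ± 0.39. Scaling the libraries by ribosomal protein genes moved the median of all tested genes to 0.66. Under it Cpr72Ec was at 0.21, and Cpr57A (1.22, adjusted p = 0.040) and Cpr67Fb (1.57, adjusted p = 0.047) passed.

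The genes that entered through control alone had, by the limit itself, at least 1 tumor library under 10 counts. Twdlalpha and TwdlX lie at the ends of a cluster of 4 Tweedle genes inside the span of goe on chromosome X, on the opposite strand. Twdlalpha had 0 and 26.9 estimated counts in tumor and 168 and 108 in control, a log2 change of -3.41 ± 1.75 (edgeR adjusted p = 0.18). TwdlX had 0 and 20.4 in tumor and 69.2 and 38.1 in control, a log2 change of -2.48 ± 1.69 (edgeR adjusted p = 0.29). In both, tumor 1 was listed at 0, and without tumor 2 both passed (adjusted p = 0.021 and 0.041). The host gene goe fell, with 531 and 706 counts in tumor against 920 and 1279 in control, a log2 change of -0.88 ± 0.25 (edgeR adjusted p = 0.048). Locus sums that add goe fell by 1.02 and 0.92 on the log2 scale (edgeR adjusted p = 0.019 and 0.026), and TwdlY and TwdlZ between them were at 0 throughout.

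Cpr51A had 75.5 and 0.0203 counts in tumor and 77.9 and 180 in control, a log2 change of -1.85 ± 1.88 (edgeR adjusted p = 0.47). Both tumor libraries lay below both control libraries on the CPM scale, tumor 1 narrowly, and without tumor 1 the difference passed (adjusted p = 0.024). Its exons lie within the targets of Asx and CG30197, and the locus sum had a log2 change of 0.29 ± 0.12 (edgeR adjusted p = 0.098). Lcp1, a larval cuticle protein gene next to CSN7, was the 1 compared gene whose groups overlapped on the CPM scale. It had 52.8 and 6.28 counts in tumor and 28 and 35.7 in control (log2 change -0.22 ± 1.07, edgeR adjusted p = 0.89), and 0.35 under ribosomal protein scaling. Its locus sum, which adds CSN7, fell by 0.35 on the log2 scale (edgeR adjusted p = 0.048). Cpr78E had 0 and 4 counts in tumor and 11 and 43.1 in control, a log2 change of -3.65 ± 1.49 (edgeR adjusted p = 0.12) with a locus sum of -1.56 ± 0.95 (edgeR adjusted p = 0.22).

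Another 13 genes reached 10 counts in some library but not in both of a group. By this choice the replicate libraries of a group stood on either side of 10 counts. Cpr64Ac had 0 and 156 counts in tumor, Cpr49Ab 0 and 43.5, and Cpr11A 12 and 0, and all 3 were at 0 in both control libraries. Cpr76Bc had 8.79 and 25.4 counts in tumor and Cpr76Bb 1.59 and 10.4, and both were at 0 in control. Lcp4 had 18.8 and 7.71 counts in tumor and 0 and 1 in control. Cpr78Cc had 10 and 0 in tumor and 12.4 and 0 in control. TwdlT and Cpr47Ef also entered the fit, and their log2 changes were 0.89 ± 0.79 and 0.79 ± 1.79 (edgeR adjusted p = 0.41 and 0.75). Over all genes that were not compared, the summed count was 202 and 356 in tumor and 67 and 75.5 in control. Of this sum in tumor 2, Cpr64Ac alone gave 156.

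Genes that make, modify and harden cuticle were taken from 8 lists chosen with earlier results of these data known. Over these lists 71 genes were tested, of which 22 (31.0%) were higher and 11 (15.5%) lower in tumor, beside the 23.4% and 21.2% of all tested genes. With trn these were 23 and 11 of 72. Counted with trn, fewer list genes were called higher or lower when any 1 library was left out. Fewer of all tested genes were then called as well, so this does not show whether the difference from all tested genes held. In the list for chitin synthesis and export 2 of 6 tested genes rose and 1 fell, with a median log2 change of 0.12, where the median of all tested genes was 0.02. They were nst, for an enzyme of the aminosugar pathway that feeds chitin synthesis (0.99 ± 0.09, locus sum -0.25), Pgm2a, for a phosphoglucomutase (0.68 ± 0.14, locus sum -0.05), and exp, which acts in tracheal chitin deposition (-1.89 ± 0.49, locus sum 0.46). For all 3 the locus sum had the opposite sign, and of these locus sums exp passed the threshold (edgeR adjusted p = 0.014).

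Of 9 tested chitin modification genes 4 rose and 2 fell, with a median log2 change of 1.46. The chitin deacetylase gene verm had 90.3 and 46.7 estimated counts in tumor and 5.33 and 3.38 in control, a log2 change of 3.94 ± 0.75 (edgeR adjusted p = 0.018). Gasp, for a chitin-binding protein of the tracheal lumen, had 110 and 205 counts in tumor and 23 and 27.7 in control (2.57 ± 0.57). The lower genes included obst-B, for another chitin-binding protein, with 0 and 2 counts in tumor and 73 and 44 in control. Of 6 tested chitinase family genes 2 rose and none fell, with a median of 2.46. This median lies between Cht6 (1.39 ± 0.48) and Cht11 (3.52 ± 1.85), which were not called. The locus sum of Cht6 was -4.06 (edgeR adjusted p = 4.0e-04) and that of Cht11 was 0.25 (edgeR adjusted p = 0.077). Cht12 had 109 and 107 counts in tumor and 0 and 0 in control, at least 36.4-fold higher (edgeR adjusted p = 0.0078), and Cht9 was at least 21.0-fold higher, with a locus sum of 2.33 on the log2 scale. The calls of verm, Cda4 and Cda5 ended on removal of any 1 of the 4 libraries, that of rtv without tumor 2, control 1 or control 2, and those of Gasp, obst-B and Cht9 ended without 3 of the 4 (control 1, control 2 and, for Gasp, tumor 2, for the other pair tumor 1). The locus sum of Cht12 did not pass (0.79, edgeR adjusted p = 0.24).

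Among 12 tested genes of tanning and pigmentation 4 rose and 1 fell, with a median log2 change of 1.05. The tyrosine hydroxylase gene ple, whose product makes the first intermediate of catecholamine tanning, had 1157 and 813 estimated counts in tumor and 7 and 18 in control. Its groups were far apart, the log2 change was 6.24 ± 0.52 (edgeR adjusted p = 0.0031), and the locus sum gave 6.25. The ebony gene e rose with few counts, 28 and 16 in tumor against 2.65 and 2.62 in control (edgeR adjusted p = 0.044), while its locus sum was -0.38. Also higher were yellow-b (2.81 ± 0.30, locus sum -0.07) and yellow-c (2.17 ± 0.61, locus sum 1.06). The gene y was not called (1.80 ± 0.60), and its locus sum was -2.03 (edgeR adjusted p = 0.0077). The calls of e and yellow-c ended on removal of any 1 of the 4 libraries. Of 12 tested genes of the zona pellucida list 1 rose and 1 fell, with a median of 0.47. The domains of these 12 genes were not checked. The higher one was dyl, with 336 and 162 counts in tumor and 0 and 2.1 in control. The gene trn, which encodes a leucine-rich repeat protein, had been put in this list by mistake and is left out of its counts. The locus sum of dyl was 0.27 (edgeR adjusted p = 0.099).

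Of 14 tested transcription factor and hormone response genes 4 rose and 3 fell, with a median of -0.15. The largest fall was that of ovo, which also encodes the epidermal factor Shavenbaby, with 550 and 455 estimated counts in tumor and 4643 and 4398 in control (-3.26 ± 0.18, edgeR adjusted p = 0.0017, locus sum -1.09). The germline also expresses ovo, and germline markers were lower with it: otu had 6.68 and 13.9 counts in tumor and 1524 and 1574 in control, and vas had 182 and 592 in tumor and 4342 and 3348 in control. Their part in the result for ovo was not tested. Among 6 tested genes of the other cuticular and envelope list 2 rose and 1 fell, with a median of 0.72. The lower one was Vajk2, with 0 and 0 counts in tumor and 85.4 and 110 in control. Its locus sum rose instead, by a log2 change of 2.87 ± 0.33 (edgeR adjusted p = 0.0018). The ABC transporter gene snu had 571 and 754 counts in tumor and 58.7 and 55.6 in control (3.45 ± 0.37), with a locus sum of 0.25 (edgeR adjusted p = 0.054). Of 6 tested Osiris genes, an insect family expressed during cuticle formation, 3 rose and 2 fell. Their median was 3.50, or 1.86 with genes at 0 in a group set at their bound. Osi19 had 130 and 91 counts in tumor and 1 and 1 in control, which is 113-fold by summed counts (exact 95% counting interval 30.9 to 938). Its call held without any single library. Those of Osi6, Osi21 and Osi1 ended on removal of any 1 of the 4, and that of Osi23 without tumor 1, control 1 or control 2.

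**Figure D4:**
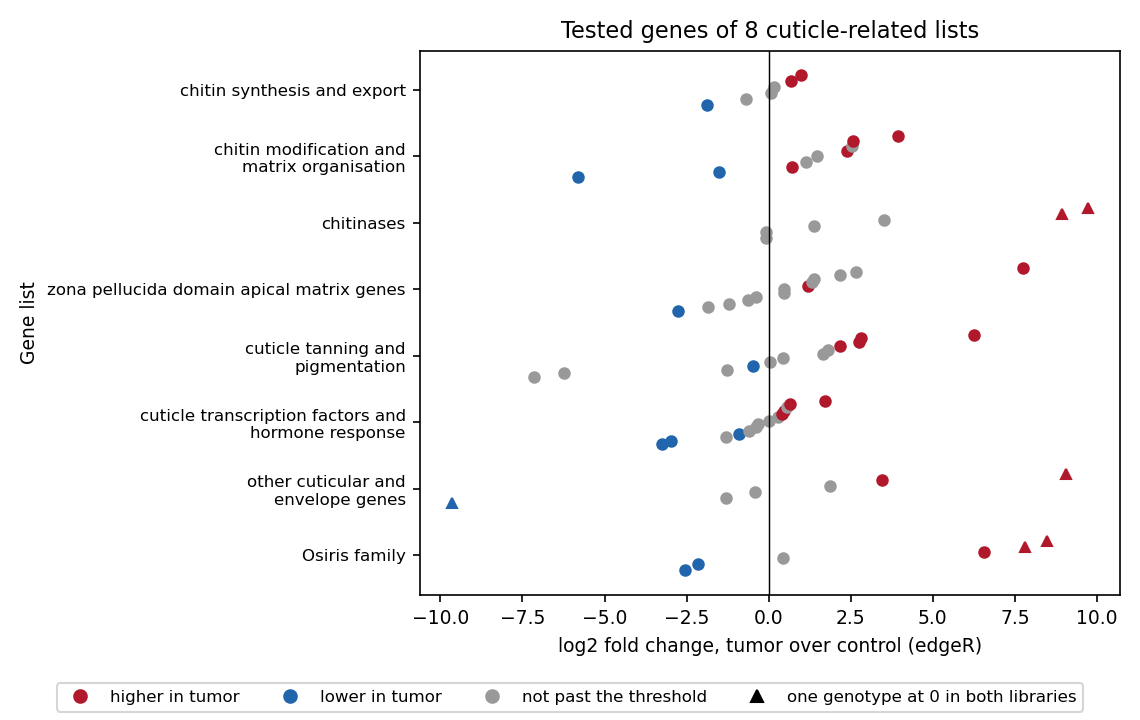
Log2 change of tumor over control (x axis) for each tested gene of the 8 lists (y axis), in red where called higher, blue where called lower and gray where not called, with triangles for genes at 0 in one genotype and trn still drawn in the zona pellucida row. Chitin modification, chitinase and Osiris genes lie mostly to the right of 0, and transcription factor genes lie on both sides.

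Markers of other cuticle-bearing and non-follicle cells also differed between the genotypes. Of all genes with 10 or more counts in both libraries of a group, 45.4% lay above both control libraries in tumor and 34.4% below. Some markers were under this limit, such as nub in the disc list with 3.57 and 7.61 counts in tumor and 0 and 0 in control. Of 10 tracheal markers 7 were above both control libraries in tumor and 1 was below, and their summed level was 207 and 318 CPM in tumor and 11.5 and 11.1 CPM in control. Most of that sum came from btl and bnl, with 4064 and 5722 and with 5121 and 7196 counts in tumor. The gene bnl encodes the ligand of the receptor btl and does not itself mark tracheal cells, so the sum is not a measure of such cells. The defining tracheal factor trh went the other way, with 7.31 and 7.75 counts in tumor and 85.3 and 89.3 in control, and Osi18 was at 0 throughout. Gasp, verm and serp also stand in the chitin modification list, pio in the zona pellucida list and Osi18 in the Osiris family. Spermathecal markers summed to 57.0 and 57.7 CPM in tumor and 53.1 and 47.4 in control, with Send1 at 0. Of 8 imaginal disc markers 5 were above both control libraries in tumor and 1 below. They summed to 519 and 472 CPM in tumor and 332 and 448 in control, and without ct, which is also in the follicle cell list, to 12.3 and 25.5 CPM in tumor and 3.34 and 5.24 in control. Dll had 204 and 125 counts in tumor and 5 and 7 in control. Fat body markers summed to 17.8 and 22.1 CPM in tumor and 14.9 and 13.3 in control. Of 7 hemocyte markers 5 were above both control libraries in tumor and 1 below. They summed to 668 and 934 CPM in tumor and 361 and 272 in control. The best counted over all libraries was crq, with 11690 and 10426 counts in tumor and 11113 and 10666 in control. Without crq the sums were 422 and 690 CPM in tumor and 91.8 and 62.6 in control. Most of that remainder in tumor came from Pxn, with 12802 and 24052 counts in tumor and 751 and 979 in control. Muscle sheath markers summed to 626 and 555 CPM in tumor and 713 and 972 in control, with 8 of 11 below both control libraries in tumor. The best counted of them, Tm1, was not among those below, with 16303 and 15121 counts in tumor and 14097 and 15952 in control. Of 8 germline markers 7 were below both control libraries in tumor. Their sum was 604 and 560 CPM in tumor and 1058 and 1111 CPM in control, and without piwi, which somatic ovary cells also express, 31.7 and 46.7 CPM in tumor and 701 and 702 CPM in control. For example, orb had 41.3 and 138 counts in tumor and 10005 and 10925 in control. Gut markers stayed under 0.4 CPM in every library. The part of these cells in the cuticle protein results was not tested.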

How the data were processed

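RNA was sequenced from 2 tumor and 2 control libraries of adult ovary. The authors deposited, per the file headers, an estimated count and a TPM value for each gene target. Kallisto is named in the submitters' processing notes, with no version, and the sources used here do not give the genome build. The deposited estimated counts, rounded to integers, went into edgeR 4.0.16 under R 4.3.3 (filterByExpr, TMM factors, quasi-likelihood test on group, Benjamini-Hochberg over all tested genes, threshold 0.05). Errors of log2 changes were derived from that test, as the absolute log2 change divided by the square root of its F statistic. TPM values were used for levels and in alternatives. Coordinates came from the Ensembl 115 annotation of BDGP6.54, matched by gene ID for 17668 of 17773 listed genes.

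The members and lists were chosen with earlier results of these data known. Named were the called members, the most abundant in each genotype, the best counted of those not called, and those nearest the limit of 10 counts. Up to 4 called genes with the smallest adjusted p were taken from each further list. Cpr49Ae, Lcp1, TwdlX, the members at 10 counts in 1 library and the list genes named beyond these 4 were named after their values were seen. Folds against a group at 0 used 3 counts in each library, and exact 95% intervals cover counting error only.

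On simulated data with 9158 genes, edgeR recovered 34 of 49 genes raised and 30 of 50 lowered by 3 on the log2 scale, 10 of 50 raised and 12 of 48 lowered by 1, and called 15 of 8961 unchanged genes. DESeq2 1.42.0, limma 3.58.1, other scalings and filters, locus sums, the replicate block and each library left out served as alternatives. The list counts without trn were added after seeing the data. So were the germline, disc and hemocyte sums without their best counted member over all libraries.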

Additional observations from a re-analysis of the deposited data

How the results depend on the processing

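The 7 calls higher in tumor became 3 (Cpr64Ab, Cpr47Ee and TwdlE) with at least 50 counts in 2 libraries, with the replicate block, at a threshold of 0.01, and without any single library (3 to 3). The correlation of deviations from the group means between tumor 1 and control 1 was -0.014. This single value cannot show whether same-numbered libraries shared more than a number. The 0 calls lower became 1 (Lcp9) with DESeq2, limma-voom and a threshold of 0.10, 1 (Twdlalpha) on log2(TPM + 1), 2 (Lcp9 and Twdlalpha) on log2(TPM + 5), 4 (Lcp1, Cpr67Fb, TwdlX and Twdlalpha) with locus sums, and 0 to 3 with each library left out (Cpr51A without tumor 1; Lcp9, TwdlX and Twdlalpha without tumor 2). An arm left with 1 library was assumed to vary like the other. All tested genes gave 4191 calls, against 8097 with locus sums, 1843 at 0.01, and 1855 to 2992 with each library left out (1855 without control 1, 2175 without control 2). Scaling on ribosomal protein genes gave 4414 higher and 920 lower. The further lists, 23 higher and 11 lower with trn, gave 37 and 6 under that scaling, 11 and 4 with the replicate block, 8 and 4 at 0.01, and 8 to 13 and 3 to 7 with each library left out; on log2(TPM + 5) 6 were lower. A limit of 50 counts left 9 genes compared, and a limit of 3 counts left 52 detected.

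The sign of the log2 change turned with locus sums for the members Cpr51A (0.29), Lcp9 (0.19) and Cpr67Fb (-0.28). Among the called list genes named by smallest adjusted p it turned for nst (-0.25), Pgm2a (-0.050), exp (0.46), yellow-b (-0.072), e (-0.38) and Vajk2 (2.87). It also turned for other tested list genes, such as Cht6 (-4.06), y (-2.03), m (1.95), pio (-0.59) and Vajk4 (0.83), all past the threshold by locus sum. It turned with ribosomal protein scaling for Lcp1 (0.35), Cpr72Ec (0.21) and yellow-d (0.14), and for Lcp1 the range with each library left out was -2.42 (without tumor 1) to 0.61 (without tumor 2). The cause was not tested. With 2 libraries a group and low counts, 4 of the 7 calls rest on every library, and the depth gives no difference for the 107 genes not compared.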
